A study of Mus musculus with 22 samples.

Results

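Messenger RNA of the enzymes that write, copy and remove DNA methylation was followed through the conversion of mouse fibroblasts to neural progenitor cells. The 9 genes were chosen by name: the DNA methyltransferase genes Dnmt1, Dnmt3a and Dnmt3b, the cofactor gene Dnmt3l, the maintenance factor gene Uhrf1, the dioxygenase genes Tet1, Tet2 and Tet3, and the DNA glycosylase gene Tdg. All 9 were found among the 22518 genes of the deposited FPKM tables, and 8 of them passed the filter on low values, with Dnmt3l below it. FPKM is a fragment count corrected for the length of the transcript and for how deeply its library was sequenced, summed here over the transcripts of a gene, so that levels can be compared between genes.

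The 22 libraries formed 11 groups of 2, and every sample was labelled with the mouse strain C57BL/6. Cultures begun from mouse embryonic fibroblasts (MEFs) and under conversion were collected on days 1, 4, 7, 10, 14, 17 and 21. The later groups were pre-NPC (primary clusters resembling neurospheres), giNPC P6 (the established induced line at passage 6), Brain-NPC (neural progenitors from neonatal brain) and teratoma. The labels give neither the induction factors nor the age of the embryos, and they do not say how the teratoma was made. They describe giNPC P6 as 1 established line, and nothing tells if paired libraries were separate cultures, so p-values measure the spread between these libraries only.

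Between 3084428 and 9689996 reads per library were counted in transcripts, and the Spearman correlation of the 2 libraries of a group over genes lay between 0.973 in giNPC P6 and 0.994 in Brain-NPC. Sums of marker genes followed the labels at the ends of the conversion. The summed FPKM of 12 fibroblast genes was 6103 and 5948 on day 1 and 30.1 and 22.2 in giNPC P6. That of 12 neural progenitor genes rose from 28.1 and 47.3 on day 1 to 4345 and 5944 in giNPC P6. Fabp7, with a mean of 4297 FPKM in giNPC P6, made up most of this neural sum. Nes had means of 17.4 FPKM on day 17 and 10.62 in pre-NPC, both below day 1, and 55.91 in giNPC P6. Every other gene of the neural list had a higher mean on day 17 and in pre-NPC than on day 1. The MEF cultures of the first days also held strong macrophage markers: 13 of the 14 macrophage genes listed were found in the tables, and their summed FPKM was 1000 and 1004 on day 1, 10150 and 12840 on day 4, 14470 and 14560 on day 7, and 6290 and 6086 on day 10. It was 24.2 and 2.85 in giNPC P6, with 3 and 6 of the 13 genes at 0. Most of the sum was Lyz2, with a mean of 8076 FPKM on day 4, 10580 on day 7 and 3603 on day 10. On these days Cd68 had means of 436, 565 and 217 FPKM, Csf1r 143, 142 and 137, and Emr1 193, 135 and 204. The macrophage genes thus did not share 1 course over these days. Pluripotency genes stayed near 0 outside teratoma, where the 10 genes summed to 10.5 and 10.2 FPKM. In bulk samples such as these, fewer cells of a type and less RNA per cell cannot be told apart.

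Methylated cytosine in mammals sits mostly in CpG dinucleotides. Dnmt3a and Dnmt3b place the mark on unmethylated DNA, while Dnmt1 copies it onto the new strand after replication, brought there by Uhrf1, which binds hemimethylated CpG. The Tet enzymes oxidise 5-methylcytosine in steps, Tdg cuts out the last oxidation products, and base excision repair restores cytosine. In brain development Dnmt3a and Tet3 are well-studied members of their families, and Dnmt3b and Dnmt3l are best known from early embryos, pluripotent cells and germ cells.

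The enzymes differed widely in level. Dnmt1 was the highest of the 9 in every library, between 13.9 and 64.0 FPKM, and Dnmt3b reached at most 1.58 FPKM and Dnmt3l at most 0.869 FPKM. Tests below are two-sided limma tests on log2(FPKM + 1) over 15659 genes, with p adjusted by Benjamini-Hochberg in each comparison. Calls needed an adjusted p under 0.05. The added 1 compresses changes of genes near or below 1 FPKM such as Tet1, so their log2 differences understate the change in FPKM.

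**Figure D1:**
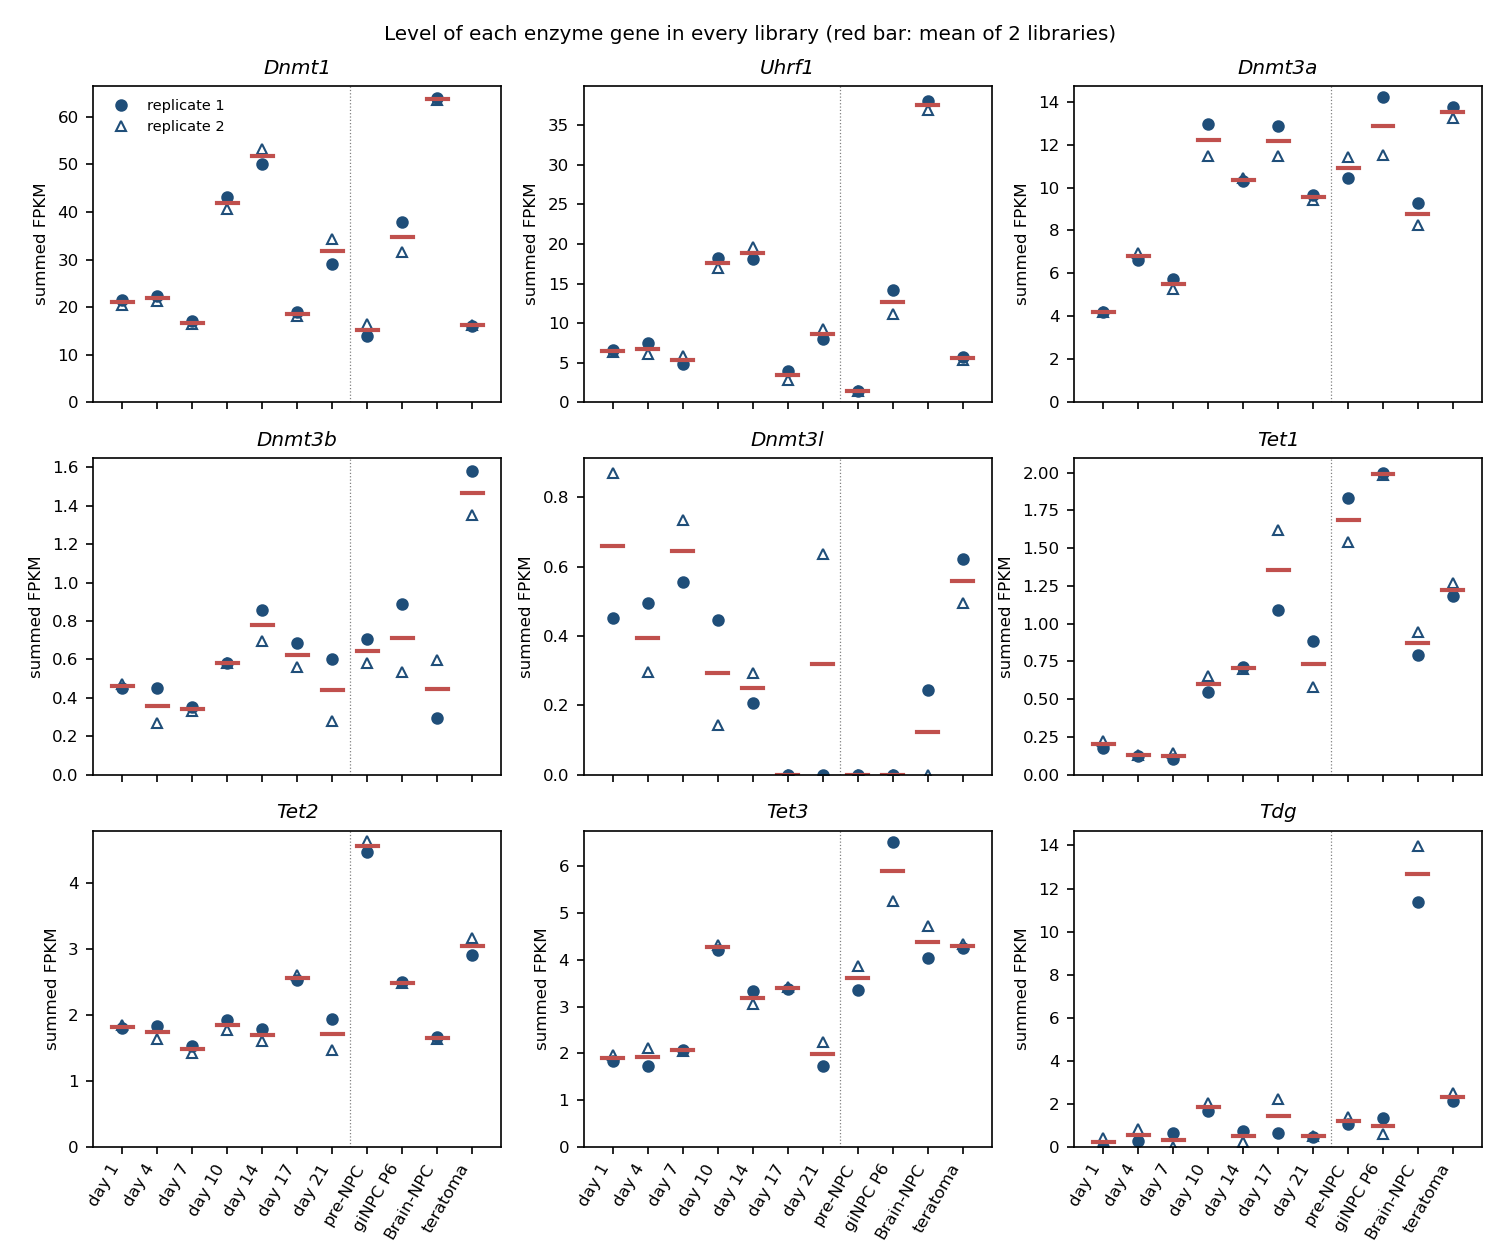
Summed FPKM (linear vertical axis, a separate scale per gene) of the 9 enzyme genes in each of the 22 libraries, by group; filled circles are replicate 1, open triangles replicate 2 and red bars the mean of the 2. Dnmt1 and Uhrf1 peak on days 10 and 14 and in Brain-NPC, Tet2 stands highest in pre-NPC at 4.48 and 4.63 FPKM, and Tdg stands apart in Brain-NPC at 11.4 and 14.0 FPKM.

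Dnmt1, the maintenance methyltransferase (chromosome 9, 20711650 to 20764332, mm9), had 21.6 and 20.5 FPKM on day 1, 22.4 and 21.3 on day 4 and 17.0 and 16.4 on day 7. It had 43.2 and 40.7 FPKM on day 10, 50.2 and 53.3 on day 14, 18.9 and 18.1 on day 17 and 29.2 and 34.4 on day 21. The later groups had 13.9 and 16.5 FPKM in pre-NPC, 37.9 and 31.5 in giNPC P6, 64.0 and 63.6 in Brain-NPC and 16.1 and 16.3 in teratoma. Days 10 and 14 thus lay above all other induction days, day 17 lay below day 1, and Brain-NPC lay above every other group with no overlap. In the order of group means, giNPC P6 overlapped day 21, day 4 overlapped day 1 and teratoma overlapped pre-NPC, and the other 7 neighbouring pairs did not overlap.

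Uhrf1, which guides Dnmt1 to hemimethylated DNA (chromosome 17, 56442760 to 56462909, mm9), had 6.60 and 6.36 FPKM on day 1, 7.45 and 6.13 on day 4 and 4.87 and 5.85 on day 7. It had 18.2 and 17.0 FPKM on day 10, 18.1 and 19.6 on day 14, 3.94 and 2.88 on day 17 and 8.05 and 9.27 on day 21. The later groups had 1.39 and 1.41 FPKM in pre-NPC, 14.2 and 11.2 in giNPC P6, 38.1 and 36.9 in Brain-NPC and 5.76 and 5.36 in teratoma. The high and low groups were those of Dnmt1, but the range was wider, with the Brain-NPC mean 26.8 times the pre-NPC mean against 4.20 times between the highest and lowest Dnmt1 means. Over the 22 libraries the Pearson correlation of Dnmt1 with Uhrf1 on log2(FPKM + 1) was 0.936, a description that includes the differences in depth and composition that libraries share.

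In 3 steps the maintenance pair fell or rose together. Between days 14 and 17 Uhrf1 fell by 2.18 ± 0.14 on the log2 scale (limma, standard error, adjusted p = 2.99e-08) and Dnmt1 fell by 1.43 ± 0.10 (adjusted p = 8.19e-08). In pre-NPC against day 21 Uhrf1 fell by 2.01 ± 0.14 (adjusted p = 6.4e-08) and Dnmt1 fell by 1.02 ± 0.10 (adjusted p = 2.14e-06). Both were higher again in the established line than in pre-NPC, Uhrf1 by 2.50 ± 0.14 (adjusted p = 4.72e-09) and Dnmt1 by 1.14 ± 0.10 (adjusted p = 6.44e-07). As a ratio within each library, Dnmt1 over Uhrf1 was 9.97 and 11.7 in pre-NPC, 4.80 and 6.30 on day 17 and 1.68 and 1.72 in Brain-NPC, and it lay between 2.37 and 3.71 in the other 16 libraries.

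Levels of the pair followed those of 24 proliferation genes. The summed FPKM of these genes, among them replication licensing factors and mitotic cyclins, was 304 and 299 on day 1, 740 and 727 on day 10, 851 and 863 on day 14, 268 and 258 on day 17, and 388 and 390 on day 21. It was 96.7 and 109 in pre-NPC, 769 and 682 in giNPC P6, 1433 and 1421 in Brain-NPC and 251 and 252 in teratoma. The correlation with the mean of this list over the 22 libraries was 0.982 for Uhrf1 and 0.94 for Dnmt1, against 0.139 for Dnmt3a, -0.039 for Tet1, 0.378 for Tet3 and -0.603 for Tet2. All 24 of the list fell between days 14 and 17, all 24 fell in pre-NPC against day 21 and all 24 rose in giNPC P6 against pre-NPC. What part proliferation has in the Dnmt1 and Uhrf1 levels was not tested.

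**Figure D2:**
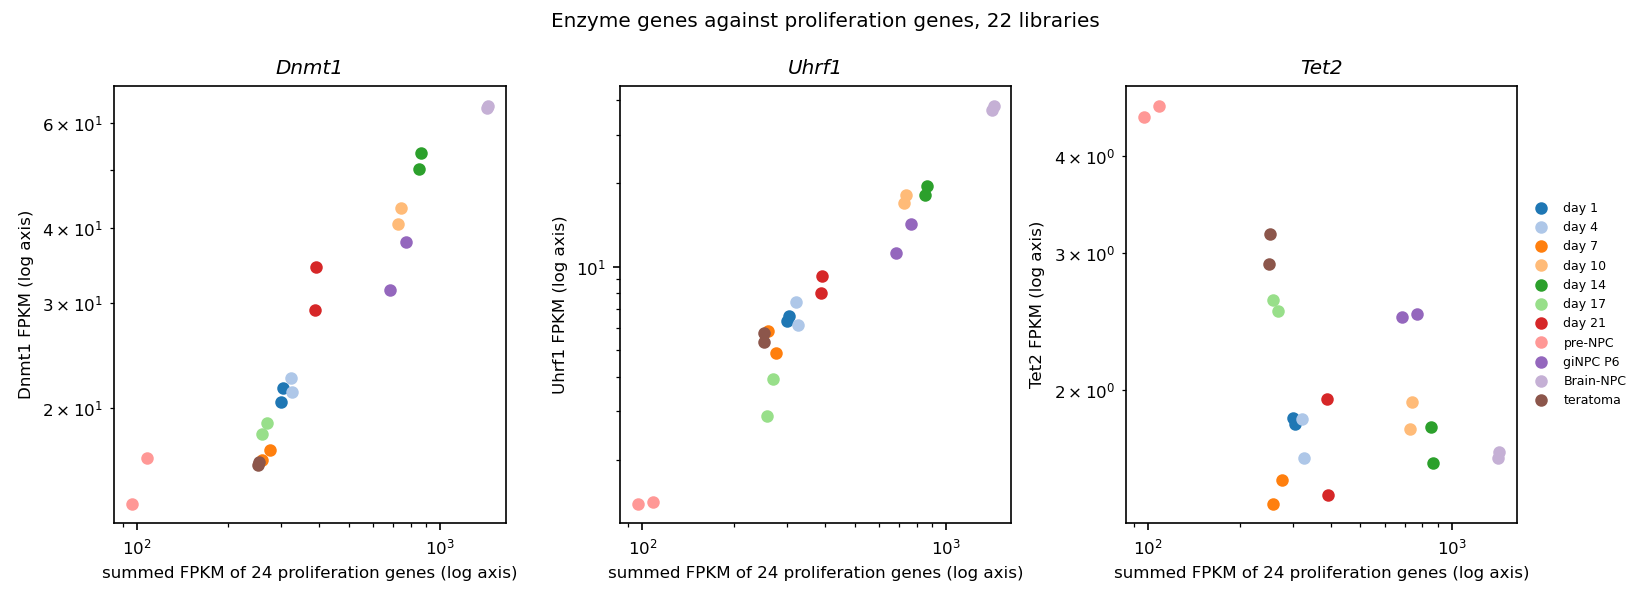
FPKM of Dnmt1, Uhrf1 and Tet2 (vertical log axes) against the summed FPKM of 24 proliferation genes (horizontal log axis) in the 22 libraries, coloured by group. Dnmt1 and Uhrf1 climb from pre-NPC at the lower left to Brain-NPC at the upper right, while Tet2 is highest in pre-NPC, where the proliferation sum is lowest at 96.7 and 109 FPKM.

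Because the pair moved together, the promoters of the 9 genes were read for the site of the E2F factors, which switch on replication genes before S phase. RefSeq promoter windows of 300 bases (250 before to 50 after a start, build GRCm38.p6) were found for all 9 genes, 16 windows in all. The letters searched were TTTCCCGC, TTTCGCGC, TTTGCCGC and TTTGGCGC and their reverse complements GCGGGAAA, GCGCGAAA, GCGGCAAA and GCGCCAAA. Of 32851 mouse promoter windows of this length, 744 (2.265%) held at least 1 of them. Among the 16 windows of the 9 genes, 1 of the 3 Dnmt1 windows and 1 of the 2 Uhrf1 windows held a match, and these are shown for that reason, 5′ to 3′ on the gene's strand, with the matching letters in capitals. The Dnmt1 window lies at chr9:20952574-20952873 on the minus strand and the Uhrf1 window at chr17:56304063-56304362 on the plus strand.
Dnmt1: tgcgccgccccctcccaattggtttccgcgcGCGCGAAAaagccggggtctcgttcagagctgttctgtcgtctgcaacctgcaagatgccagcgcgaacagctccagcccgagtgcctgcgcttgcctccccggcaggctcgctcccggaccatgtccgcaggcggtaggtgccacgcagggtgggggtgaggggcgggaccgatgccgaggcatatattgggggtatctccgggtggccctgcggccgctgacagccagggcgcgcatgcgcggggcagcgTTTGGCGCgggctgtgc
Uhrf1: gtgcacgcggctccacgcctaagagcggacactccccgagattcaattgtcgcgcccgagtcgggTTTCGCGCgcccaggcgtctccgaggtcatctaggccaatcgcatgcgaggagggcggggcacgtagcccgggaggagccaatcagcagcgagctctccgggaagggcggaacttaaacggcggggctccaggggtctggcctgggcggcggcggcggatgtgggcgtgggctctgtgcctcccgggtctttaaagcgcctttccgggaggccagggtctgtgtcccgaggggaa
In Dnmt1 the first match, GCGCGAAA, begins 219 bases before the start and the second, TTTGGCGC, begins 33 bases after it. In Uhrf1 the match, TTTCGCGC, begins 185 bases before the start. Both windows hold 33 CpG dinucleotides, the target of the enzymes themselves, against a median of 7 over all windows. A match is a description of these letters and not evidence of binding, and no match in the other 14 windows says only that these letters are not there.

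Dnmt3a, the de novo methyltransferase most used in brain (chromosome 12, 3806980 to 3914443, mm9), rose early in the conversion and stayed up. It had 4.22 FPKM in both day 1 libraries, 6.62 and 6.96 on day 4 and 5.75 and 5.29 on day 7. It had 13.0 and 11.5 FPKM on day 10, 10.3 and 10.4 on day 14, 12.9 and 11.5 on day 17 and 9.67 and 9.43 on day 21. The later groups had 10.4 and 11.4 FPKM in pre-NPC, 14.2 and 11.5 in giNPC P6, 9.29 and 8.27 in Brain-NPC and 13.8 and 13.3 in teratoma. Every library from day 4 on lay above both day 1 libraries, and every library from day 10 on lay above all libraries of days 1 to 7. From the top of the order, teratoma, giNPC P6, day 10 and day 17 overlapped one another in turn.

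Against day 1, Dnmt3a was higher by 0.58 ± 0.11 on the log2 scale on day 4 (limma, adjusted p = 0.000781), by 1.34 ± 0.11 on day 10 (adjusted p = 8.47e-08) and by 1.02 ± 0.11 on day 21 (adjusted p = 8.59e-07). It was the only one of the 8 tested members called on day 4, when 24.5% of all tested genes were called. That call was lost in edgeR without a filter (0.55, adjusted p = 0.0648) and in a limma fit of only the 4 libraries compared (0.58, adjusted p = 0.0644). The day 7 difference of 0.32 ± 0.11 (adjusted p = 0.0271) lost its call when either day 1 library or the first day 7 library was left out (0.32, 0.32 and 0.27, adjusted p = 0.101, 0.0953 and 0.127), after TMM rescaling (0.25, adjusted p = 0.0559) and with only the 4 libraries compared (0.32, adjusted p = 0.0902). Unlike the maintenance pair, Dnmt3a did not pass the main test between days 14 and 17 (0.21 ± 0.11, limma, adjusted p = 0.136) or in pre-NPC against day 21 (0.17 ± 0.11, adjusted p = 0.202). Nor did it in giNPC P6 against pre-NPC (0.21 ± 0.11, adjusted p = 0.117). After TMM rescaling it was called higher in pre-NPC than on day 21 (0.28 ± 0.10, limma, adjusted p = 0.0285). Without the second giNPC P6 library its difference in giNPC P6 against pre-NPC was 0.36. The ratio of Dnmt1 to Dnmt3a ran from 1.17 and 1.23 in teratoma and 1.33 and 1.45 in pre-NPC to 6.89 and 7.69 in Brain-NPC.

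The tables list 2 Dnmt3a transcripts, the long NM_007872 (9735 bases) and the short NM_153743 (5424 bases) with a start further downstream, which encodes the shorter protein best known from embryonic stem and germ cells. The short transcript was estimated at 1.53 and 2.05 FPKM in teratoma, 11.1% and 15.4% of the gene. On day 10 it had 1.22 and 0.112 FPKM, so the 2 libraries of that day disagreed. In the other 18 libraries it was at most 0.352 FPKM.

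Dnmt3b, the second de novo enzyme (chromosome 2, 153475190 to 153513466, mm9), was low everywhere and highest in teratoma. Its 20 libraries outside teratoma ranged from 0.267 on day 4 to 0.889 FPKM in giNPC P6, and teratoma had 1.58 and 1.35 FPKM. The 2 teratoma libraries did not overlap any other group, whereas 8 of the 10 neighbouring pairs of groups in the order of means did overlap. Teratoma against giNPC P6 was the only one of 13 comparisons in which Dnmt3b was called, higher by 0.53 ± 0.13 on the log2 scale (limma, adjusted p = 0.00169). Dnmt3b passed the filter on low values only through the 2 teratoma libraries, so this call is not independent of the filter. Without the second giNPC P6 library it was also called higher in that line than on day 1 (0.37, adjusted p = 0.0346) and than in Brain-NPC (0.39, adjusted p = 0.04), the latter also without the second Brain-NPC library (0.40, adjusted p = 0.0496). In fits of only the 4 libraries compared, Dnmt3b was called on days 7, 10 and 14 against day 1 (-0.12, 0.11 and 0.28, limma, adjusted p = 0.0422, 0.0231 and 0.0289) with the same differences as in the fit of all libraries.

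Dnmt3l, which has no catalytic activity and stimulates Dnmt3a and Dnmt3b (chromosome 10, 77505032 to 77526360, mm9), did not reach 1 FPKM in any library and was not tested. It had 0.451 and 0.869 FPKM on day 1, 0.556 and 0.736 on day 7, and 0.622 and 0.494 in teratoma. It was listed at 0 in both libraries of day 17, pre-NPC and giNPC P6, and in 1 library each of day 21 and Brain-NPC. Values this low do not order the groups.

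The levels of the Tet genes over the groups were as follows. Tet1 (chromosome 10, 62267318 to 62342762, mm9), the member best known from embryonic stem cells, had 0.175 and 0.226 FPKM on day 1, 0.122 and 0.133 on day 4 and 0.105 and 0.143 on day 7. It had 0.550 and 0.653 FPKM on day 10, 0.711 and 0.701 on day 14, 1.09 and 1.62 on day 17 and 0.884 and 0.579 on day 21. It had 1.83 and 1.54 FPKM in pre-NPC, 2.00 and 1.99 in giNPC P6, 0.792 and 0.948 in Brain-NPC and 1.18 and 1.27 in teratoma. All 16 libraries from day 10 on lay above all 6 of days 1 to 7, and giNPC P6 stood above every other group. The confidence intervals that the deposited tables give for the FPKM were 0.114 to 0.236 and 0.155 to 0.297 on day 1, and 1.772 to 2.228 and 1.775 to 2.197 in giNPC P6.

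The mean Tet1 FPKM in giNPC P6 was 9.94 times that on day 1, a difference of 1.32 ± 0.10 on the log2(FPKM + 1) scale (limma, adjusted p = 2.88e-08). The deposited counts are usable for Tet1, Tet2, Tet3 and Dnmt3a, for the last only as reads that its 2 transcripts do not share. For Tet1 they gave a log2 fold change of 2.99 ± 0.34 in the same comparison (edgeR's quasi-likelihood test with Benjamini-Hochberg adjustment, adjusted p = 1.19e-07). Tet1 was already called on day 10 by limma (0.42 ± 0.10, adjusted p = 0.00372) but not by edgeR (0.81 ± 0.35, adjusted p = 0.0769), and by both on day 14. It was higher in giNPC P6 than in Brain-NPC by 0.68 ± 0.10 (limma, adjusted p = 0.000121).

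Tet2 (chromosome 3, 133126641 to 133207354, mm9), known above all from blood cells, had 1.81 and 1.84 FPKM on day 1, 1.84 and 1.64 on day 4 and 1.53 and 1.43 on day 7. It had 1.93 and 1.78 FPKM on day 10, 1.79 and 1.61 on day 14, 2.53 and 2.61 on day 17 and 1.95 and 1.46 on day 21. It had 4.48 and 4.63 FPKM in pre-NPC, 2.50 and 2.48 in giNPC P6, 1.66 and 1.64 in Brain-NPC and 2.90 and 3.18 in teratoma. The pre-NPC libraries lay above all others, day 17 lay above the other induction days, and days 10, 1, 4, 21 and 14 and Brain-NPC overlapped in turn. In pre-NPC against day 21 Tet2 rose by 1.04 ± 0.10 (limma, adjusted p = 1.03e-06), while Dnmt1 and Uhrf1 fell in that step. It fell by 0.67 ± 0.10 in giNPC P6 against pre-NPC (adjusted p = 6.32e-05).

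Smaller Tet2 differences depended on the values used. Day 17 lay 0.34 ± 0.10 above day 1 on FPKM (limma, adjusted p = 0.00692), 0.14 after rescaling FPKM by TMM factors (adjusted p = 0.255), and -0.02 ± 0.20 from it on counts (edgeR, adjusted p = 1). The giNPC P6 difference from day 1 of 0.31 ± 0.10 (limma, adjusted p = 0.0116) was 0.08 ± 0.20 on counts (edgeR, adjusted p = 0.779) and lost its call without the first day 1 library (0.30, adjusted p = 0.0531). On counts Tet2 was lower than on day 1 on days 7, 14 and 21 (-0.67, -0.56 and -0.59, edgeR, adjusted p = 0.0194, 0.0296 and 0.0222), where limma on FPKM gave -0.19, -0.07 and -0.07 with no call. The macrophage markers were high on days 4, 7 and 10, and their part in the Tet2 levels was not tested.

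Tet3 (chromosome 6, 83312368 to 83391672, mm9), the Tet gene prominent in neurons, had 1.84 and 1.97 FPKM on day 1, 1.74 and 2.12 on day 4 and 2.08 and 2.06 on day 7. It had 4.21 and 4.33 FPKM on day 10, 3.33 and 3.06 on day 14, 3.37 and 3.43 on day 17 and 1.73 and 2.25 on day 21. It had 3.35 and 3.86 FPKM in pre-NPC, 6.52 and 5.27 in giNPC P6, 4.03 and 4.73 in Brain-NPC and 4.25 and 4.33 in teratoma. Days 10, 14 and 17 lay above the earlier days, day 21 overlapped days 1 to 7 again, and giNPC P6 lay above every other group.

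Tet3 was higher than on day 1 by 0.86 ± 0.12 on day 10 (limma, adjusted p = 3.76e-05) and by 1.24 ± 0.12 in giNPC P6 (adjusted p = 3.74e-07). On day 21 it differed from day 1 by 0.04 ± 0.12 (adjusted p = 0.835), and in pre-NPC it was 0.63 ± 0.12 higher than on day 21 (adjusted p = 0.000751). The day 14 and day 17 differences of 0.53 ± 0.12 and 0.60 ± 0.12 (adjusted p = 0.00178 and 0.000562) were 0.36 ± 0.19 and 0.45 ± 0.19 on counts, without a call (edgeR, adjusted p = 0.142 and 0.0565). The excess of giNPC P6 over Brain-NPC, 0.35 ± 0.12 (limma, adjusted p = 0.0299), lost its call without the first giNPC P6 library (0.22) or the first Brain-NPC library (0.26). On counts this excess was 0.48 ± 0.18 (edgeR, adjusted p = 0.0481), and 0.47 ± 0.21 without a filter (adjusted p = 0.0805). Tet3 in teratoma was lower than in giNPC P6 on FPKM (-0.38 ± 0.12, limma, adjusted p = 0.0138) and on counts (-0.76 ± 0.18, edgeR, adjusted p = 0.00118). This FPKM difference lost its call without the first giNPC P6 library (-0.24) and with only the 4 libraries compared (-0.38, limma, adjusted p = 0.0671).

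The share of Tet1 in the Tet messages was small on days 1 to 7 and larger in pre-NPC and giNPC P6. The summed Tet level was 3.63 to 4.04 FPKM in the 6 libraries of days 1 to 7, of which Tet1 was 2.83% to 5.60%. It was 9.66 and 10.0 FPKM in pre-NPC and 11.0 and 9.73 in giNPC P6, of which Tet1 was 15.4% to 20.4%. Tet2 made 46.4% and 46.2% of the sum in pre-NPC, its share on day 1 having been 47.3% and 45.7%, while Tet3 made 59.2% and 54.1% in giNPC P6 and 62.1% and 64.7% in Brain-NPC. The ratio of Dnmt1 to the Tet sum was 1.44 and 1.65 in pre-NPC and 1.93 and 1.86 in teratoma, against 9.86 and 8.69 in Brain-NPC and 8.60 and 9.93 on day 14.

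**Figure D3:**
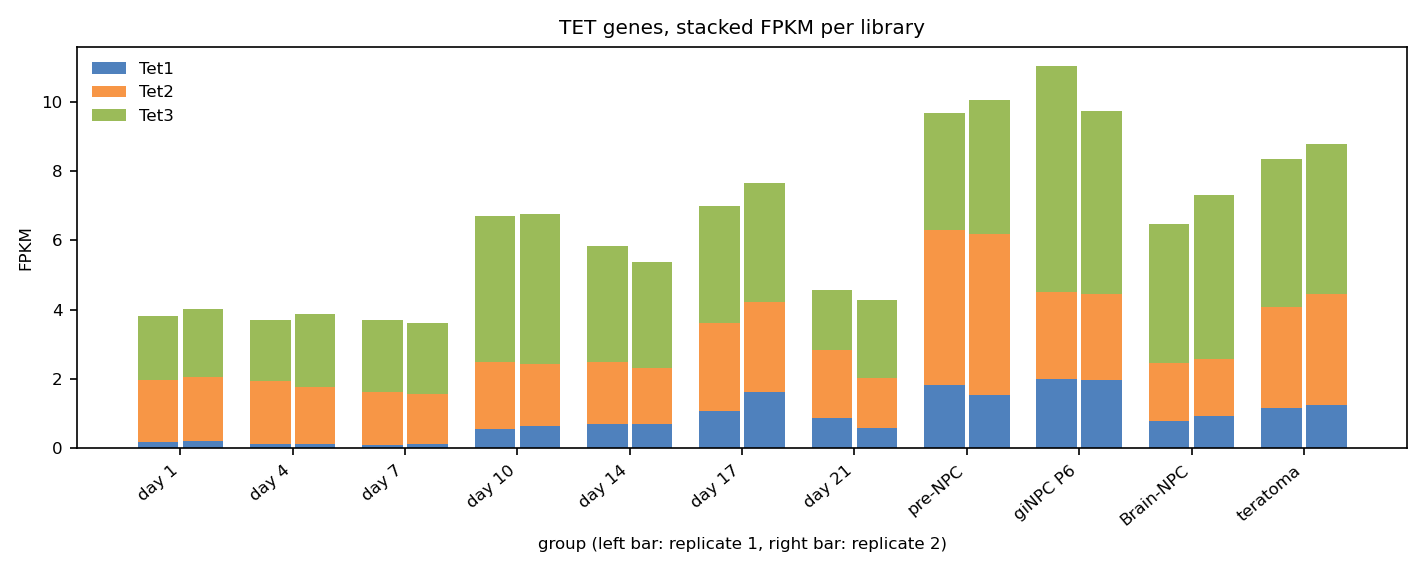
Stacked FPKM of Tet1, Tet2 and Tet3 in every library (left bar replicate 1, right bar replicate 2, vertical axis from 0). The stacks of days 1 to 7 reach at most 4.04 FPKM with almost no Tet1, and those of pre-NPC and giNPC P6 reach 9.66 to 11.0 FPKM.

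Tdg (chromosome 10, 82092583 to 82113239, mm9), the glycosylase that removes the oxidised bases and is needed for mouse development, was high in Brain-NPC only as the tables stand. It had 11.4 and 14.0 FPKM there, and the other 20 libraries ranged from 0 to 2.51 FPKM, the latter in teratoma. Its 0 values stood beside other values of the same group: 0 and 0.429 on day 1, and 0.652 and 0 on day 7. Tdg differed by -2.80 ± 0.31 on the log2 scale in giNPC P6 against Brain-NPC (limma, adjusted p = 9.72e-06).

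The mouse genome holds near copies of Tdg, and Gm9855, which RefSeq lists as a transcribed Tdg pseudogene on chromosome 10, stood above Tdg in every group but Brain-NPC, where Tdg was high and Gm9855 low. It had 7.07 and 6.42 FPKM on day 1, 20.62 and 21.98 on day 14, 27.2 and 23.9 in giNPC P6, and 4.999 and 2.84 in Brain-NPC. Fragments that match both cannot be assigned with certainty, so the Tdg values are uncertain. The sum of Tdg and Gm9855 was 0.64 ± 0.16 higher, not lower, in giNPC P6 than in Brain-NPC (limma, adjusted p = 0.00549), and it was 1.52 ± 0.16 above day 1 on day 14 (adjusted p = 1.65e-06), where Tdg alone was not called (0.31 ± 0.31, adjusted p = 0.446). For teratoma against giNPC P6 the sum gave -1.13 ± 0.16 (adjusted p = 1.88e-05) and Tdg alone 0.76 ± 0.31 (adjusted p = 0.0457), which also lost its call without either teratoma library (0.85 and 0.67, adjusted p = 0.101 and 0.188) or the second giNPC P6 library (0.49, adjusted p = 0.274). The day 10 rise of Tdg of 1.26 ± 0.31 (adjusted p = 0.004) was 1.00 without the first day 1 library (adjusted p = 0.0517), and the sum rose by 1.09 ± 0.16 (adjusted p = 6.15e-05). On day 21 the sum was 0.91 ± 0.16 above day 1 (adjusted p = 2e-04), where Tdg alone, at 0.32, was not called.

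**Figure D4:**
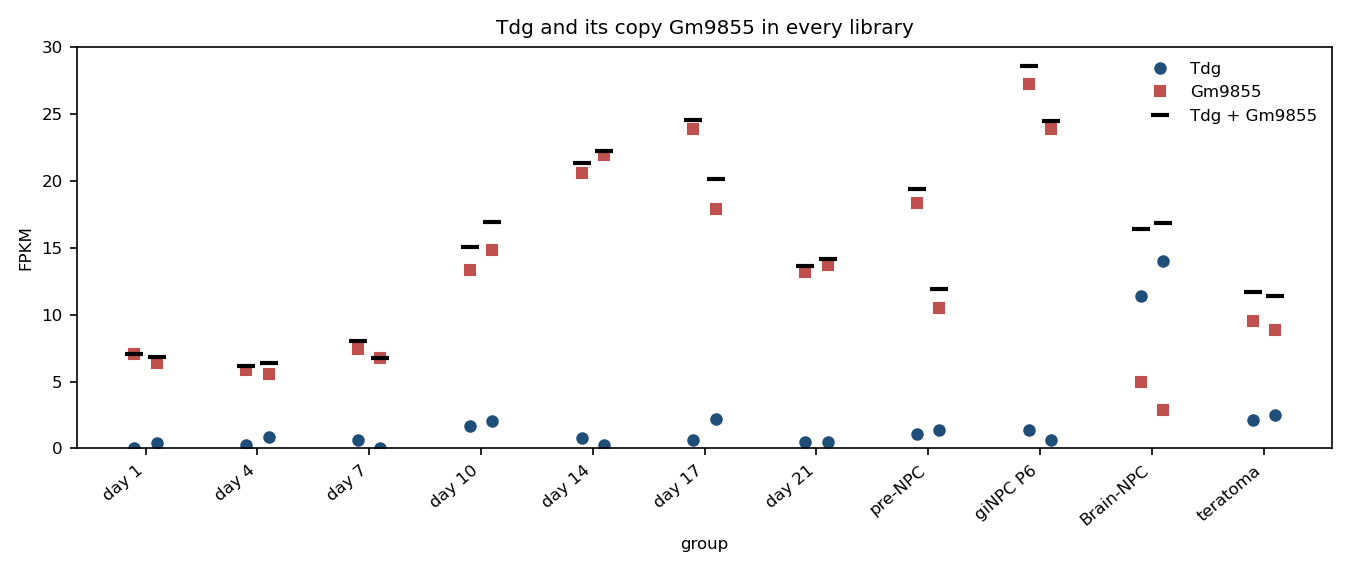
FPKM of Tdg (circles), its copy Gm9855 (squares) and their sum (bars) in every library, replicate 1 left and replicate 2 right within a group. Gm9855 exceeds Tdg in all groups except Brain-NPC, and the sum is highest in giNPC P6, at 28.6 and 24.5 FPKM.

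Counted over the members, the conversion went mostly upward from day 10. These comparisons share the day 1 libraries, so they are not independent of one another. On day 4, 1 of the 8 tested members, Dnmt3a, was higher and 0 were lower, where 16.2% of all tested genes were higher and 8.26% lower (24.5% in either direction). On day 7, 1 was higher and 1 lower, where 23.5% of all genes were higher and 14% lower (37.5% in all). On day 10, 6 were higher and 0 lower, with Dnmt3b and Tet2 not called, where 40.3% of all genes were higher and 9.64% lower (49.9% in all). On day 14, 5 were higher and 0 lower, where 39.9% of all genes were higher and 16.6% lower (56.5% in all). On day 17, 5 were higher and 1, Uhrf1, lower, where 39.9% of all genes were higher and 22.8% lower (62.7% in all). On day 21, 4 were higher and 0 lower, where 38.6% of all genes were higher and 23.8% lower (62.4% in all). Counting calls in either direction, the members' share was above that of all genes on days 10, 14 and 17 and below it on days 4, 7 and 21. Counting higher calls only, it was above that of all genes on day 21 as well (4 of 8 against 38.6%). Only 8 genes were there to count.

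Tdg was among the members called on days 10 and 17, and its day 17 difference of 0.95 ± 0.31 (limma, adjusted p = 0.016) ended without the first day 1 library (0.69, adjusted p = 0.143) or the second day 17 library (0.47, adjusted p = 0.248). On day 7 the call of Dnmt1, lower by 0.32 ± 0.10 (-0.32, adjusted p = 0.0232), ended when any of the 4 libraries was left out (-0.28 to -0.35, adjusted p from 0.0507 to 0.13). On day 21 Uhrf1 was higher by 0.37 ± 0.14 (adjusted p = 0.0312), which ended without either day 1 library (0.39 and 0.34, adjusted p = 0.0772 and 0.116) or the second day 21 library (0.28, adjusted p = 0.189). The median gene was itself higher than on day 1 by 0.24 on day 10, 0.20 on day 14, 0.14 on day 17 and 0.12 on day 21. Relative to that median, Dnmt1 was 0.72, Dnmt3a 1.10, Uhrf1 1.07, Tdg 1.01 and Tet3 0.62 higher on day 10. Tet2, at 0.01 without a call, turned to -0.23. Tet1 went from 0.42 to 0.17, and Dnmt3b, at 0.11 without a call, to -0.13. For Tet1 and Dnmt3b these relative values cannot decide a direction, because the added 1 compresses their changes while the whole median was subtracted. Their mean FPKM went from 0.2006 on day 1 to 0.6017 on day 10 for Tet1, and from 0.4616 to 0.5815 for Dnmt3b. With FPKM rescaled by TMM factors, the day 21 difference of Uhrf1 was 0.15 (adjusted p = 0.377), the day 14 difference of Tet3 was 0.30 (adjusted p = 0.0511), Tet2 became lower on day 14 (-0.28, adjusted p = 0.027) and Dnmt1 became lower on day 17 (-0.46, adjusted p = 0.000702).

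In the other steps members went both ways. Between days 14 and 17, 2 were higher (Tet1 and Tet2) and 2 lower (Dnmt1 and Uhrf1), where 18.2% of all genes were higher and 21.6% lower (39.8% in all). In pre-NPC against day 21, 3 were higher (the 3 Tet genes) and 2 lower (Dnmt1 and Uhrf1), where 18.8% of all genes were higher and 26.6% lower (45.4% in all). In giNPC P6 against pre-NPC, 3 were higher (Uhrf1, Dnmt1 and Tet3) and 1, Tet2, lower, where 23.2% of all genes were higher and 20.8% lower (44% in all). The median of all genes differed by -0.01, -0.03 and 0 in these 3 steps. Tdg, not called in the first of them (0.65 ± 0.31, limma, adjusted p = 0.121), was called there without the first day 17 library (1.13, adjusted p = 0.0191).

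Both progenitor lines stood above day 1 in most members. In the giNPC P6 line, 6 members were higher and 0 lower, where 40.4% of all genes were higher and 26.7% lower (67% in all). In the brain cells, 6 were higher and 0 lower, where 40.7% of all genes were higher and 29.6% lower (70.3% in all). On counts DESeq2 called Tet2 lower in Brain-NPC than on day 1 (-0.53, adjusted p = 0.0183). Tdg in giNPC P6 (0.71 ± 0.31, limma, adjusted p = 0.0594) passed without the second day 1 or the second giNPC P6 library (0.97 and 0.98, adjusted p = 0.0414 and 0.0356). Summed with Gm9855, it was 1.79 ± 0.16 above day 1 in giNPC P6 (adjusted p = 1.66e-07). Side by side, the Dnmt1 difference was 0.69 ± 0.10 for giNPC P6 and 1.55 ± 0.10 for Brain-NPC, Uhrf1 0.86 ± 0.14 and 2.36 ± 0.14, Dnmt3a 1.40 ± 0.11 and 0.90 ± 0.11, and Tet1 1.32 ± 0.10 and 0.64 ± 0.10 (limma, log2 scale). Compared directly, giNPC P6 had 4 members higher than Brain-NPC (Dnmt3a and the 3 Tet genes) and 3 lower (Dnmt1, Uhrf1 and Tdg), where 20.7% of all genes were higher and 21.8% lower (42.5% in all). The Tdg direction turned when Gm9855 was added (0.64 ± 0.16, limma, adjusted p = 0.00549). Uhrf1 was lower by 1.50 ± 0.14 (-1.50, adjusted p = 1.4e-06), Dnmt1 by 0.87 ± 0.10 (-0.87, adjusted p = 1.37e-05), and Dnmt3a was higher by 0.50 ± 0.11 (adjusted p = 0.00154). The 24 proliferation genes moved with this: 0 were higher and 22 lower in giNPC P6, and their part in the result was not tested.

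Teratoma against giNPC P6 gave 2 members higher (Dnmt3b and Tdg) and 4 lower (Dnmt1, Uhrf1, Tet1 and Tet3), where 43% of all genes were higher and 23.5% lower (66.5% in all). Of these, Dnmt3b had passed the filter on low values only through teratoma. Dnmt1 and Uhrf1 were both lower by 1.05 (-1.05 ± 0.10 and -1.05 ± 0.14, limma, adjusted p = 2.25e-07 and 6.68e-06). Dnmt3a was not called on FPKM (0.07 ± 0.11, limma, adjusted p = 0.573), but on counts it was lower (-0.48 ± 0.17, edgeR, adjusted p = 0.0175). Its counts leave out reads shared by its 2 transcripts, so they cover a part of the gene and the FPKM cover the whole. The median gene was 0.18 higher in teratoma, and Tdg lost its call after TMM rescaling (0.60, adjusted p = 0.113) and turned lower when summed with Gm9855 (-1.13 ± 0.16, adjusted p = 1.88e-05). Teratoma is a mixed tissue: all 12 fibroblast, all 13 macrophage and all 7 epithelial markers rose, 22 of 24 proliferation genes fell, and their part in the members' differences was not tested.

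**Figure D5:**
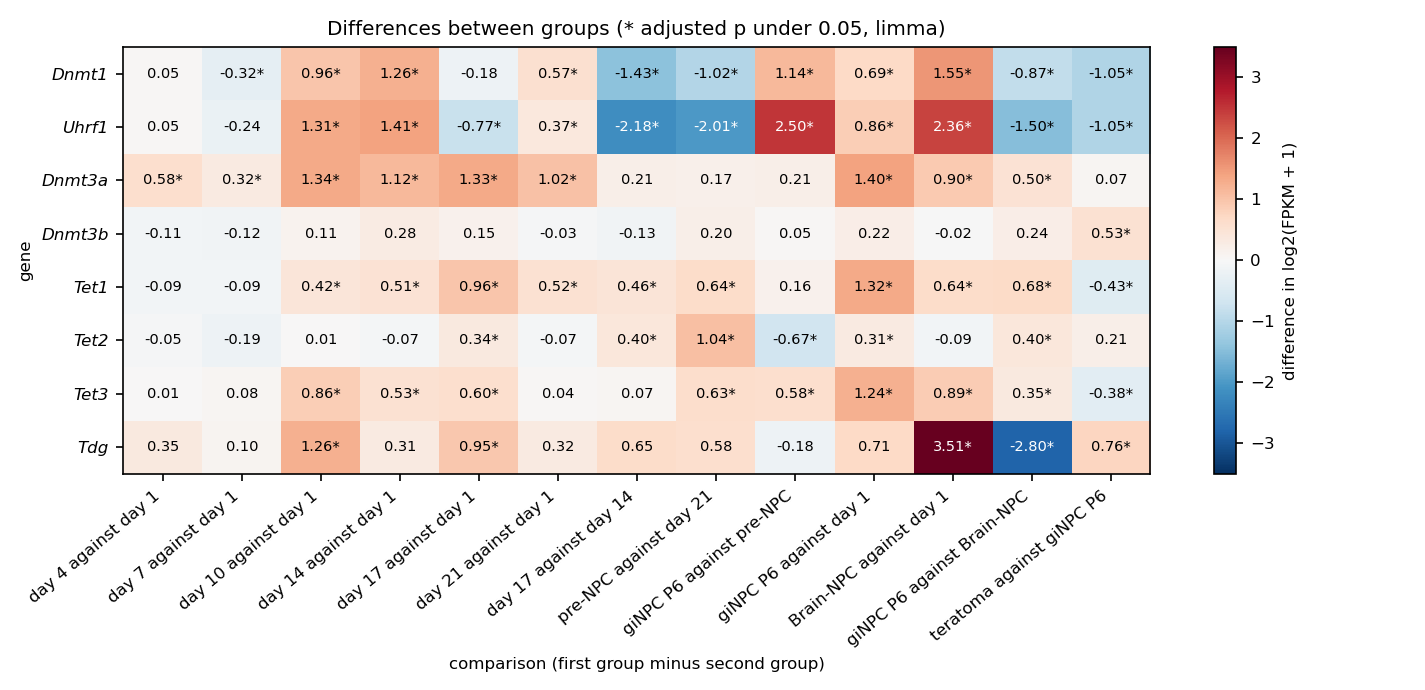
Difference in log2(FPKM + 1) of the 8 tested genes (rows) in the 13 comparisons (columns, first group minus second), red for higher and blue for lower, with an asterisk at an adjusted p under 0.05 in limma. Dnmt1 and Uhrf1 change sign together from column to column (Uhrf1 from -2.18 on day 17 against day 14 to 2.50 in giNPC P6 against pre-NPC). Dnmt3a is positive in every column on this scale. In teratoma against giNPC P6 it is -0.10 relative to the median gene, and -0.48 on counts, which leave out reads shared by its 2 transcripts.

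Genes that work beside the members gave the following. Of 15 maintenance and recruitment partners, 11 were higher and 1 lower on day 14 than on day 1, where 39.9% of all genes were higher and 16.6% lower. In the same comparison 23 of 24 proliferation genes rose, and their part in this was not tested. Lig1, the replicative DNA ligase, was 1.83 ± 0.10 higher (limma, adjusted p = 6.28e-10) and Zfp57, a factor that guards imprinted methylation, 0.99 lower (-0.99 ± 0.22, adjusted p = 0.00154). The median of these partners was 0.49 on the log2 scale, against 0.20 over all genes tested. In giNPC P6 against Brain-NPC, 2 partners were higher and 4 lower, beside the 22 lower proliferation genes, where 20.7% of all genes were higher and 21.8% lower. Hdac1, a histone deacetylase, was 0.97 ± 0.15 higher (limma, adjusted p = 0.000179) and Pcna, the replication clamp that holds Dnmt1 at the fork, 0.99 lower (-0.99 ± 0.12, adjusted p = 1.28e-05).

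Of 11 readers of methylated CpG, 3 were higher and 4 lower on day 21 than on day 1 (median 0.18 against 0.12 over all genes), where 38.6% of all genes were higher and 23.8% lower. Mbd3, a subunit of the NuRD complex, rose from a mean of 37.0 to 92.4 FPKM (1.29 ± 0.20, limma, adjusted p = 5.77e-05). Uhrf2, the relative of Uhrf1, went the other way, from 34.9 to 11.2 FPKM (-1.56 ± 0.12, adjusted p = 2.16e-08). Uhrf1 itself was 0.37 higher, but 0.15 without a call after TMM rescaling (limma, adjusted p = 0.377).

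Of 16 tested base excision repair and cytosine deaminase genes, which act after the Tet enzymes, 7 were higher and 1 lower on day 21 (median 0.25 against 0.12). Of all genes, 38.6% were higher and 23.8% lower on day 21 than on day 1. Gadd45g, a repair-linked and proneural gene, rose from 2.12 FPKM on day 1 to 42.7 on day 21 (3.82 ± 0.18, limma, adjusted p = 1.32e-10). It had 110 FPKM in giNPC P6 against 30.7 in Brain-NPC (1.78 ± 0.18, adjusted p = 3.78e-06). Ung, of the same list, went the other way between these lines, with 6.31 against 14.0 FPKM (-1.05 ± 0.16, adjusted p = 0.000108). Of all genes, 20.7% were higher and 21.8% lower in giNPC P6 than in Brain-NPC. Lig3 was 0.39 lower on day 21 (-0.39 ± 0.10, adjusted p = 0.00404). Of 8 Tet partners, 2 were higher and 1 lower on day 21 (median 0.03 against 0.12), beside the same 38.6% and 23.8% of all genes. Cxxc5, a CXXC-domain protein, was 1.19 ± 0.10 higher (limma, adjusted p = 4.67e-08) and Ddb1, a ubiquitin ligase subunit, 1.03 lower (-1.03 ± 0.10, adjusted p = 4.31e-07). Ogt, the sugar transferase that binds Tet proteins, was 1.26 ± 0.10 higher in giNPC P6 than in Brain-NPC (limma, adjusted p = 2.56e-07). Hcfc1, of the same list, went the other way there (-0.86 ± 0.13, adjusted p = 9.24e-05). Both stood beside 20.7% of all genes higher and 21.8% lower in that comparison.

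Enzymes that supply the methyl donor and the Tet co-substrate 2-oxoglutarate split the 2 progenitor lines in 1 direction. Of 17 genes, 0 were higher and 11 lower in giNPC P6 than in Brain-NPC (median -0.56 against 0 over all genes), where 20.7% of all genes were higher and 21.8% lower. In the same comparison 22 of 24 proliferation genes were lower, and their part in this was not tested. Shmt1, a serine-dependent one-carbon enzyme, had a mean of 11.7 against 27.1 FPKM (-1.15 ± 0.16, limma, adjusted p = 5.04e-05), and the smallest called difference was that of D2hgdh, an enzyme that yields 2-oxoglutarate (-0.49 ± 0.16, adjusted p = 0.0193). Against day 1, day 21 had 9 of the 17 higher and 2 lower, where 38.6% of all genes were higher and 23.8% lower. Mthfd1, a folate cycle enzyme, was 2.12 ± 0.09 higher on day 21 (limma, adjusted p = 6.36e-11).

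Germline genes whose promoters are silenced by methylation in somatic cells were almost silent: 3 of 15 passed the filter. On day 21 all 3 were higher than on day 1, where 38.6% of all genes were higher and 23.8% lower. Among them were Sycp3, of the meiotic chromosome axis (0.479 to 1.31 FPKM, 0.64 ± 0.15, limma, adjusted p = 0.00195), and Ddx4, a germ cell RNA helicase (0.148 to 0.491 FPKM, 0.37 ± 0.11, adjusted p = 0.0101). Sycp3 reached 1 FPKM only on days 17 and 21 and in pre-NPC, and Ddx4 only in pre-NPC. The filter thus kept these genes through late groups, so their calls and the count of 3 are not independent of it.

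The genes whose pattern over the 22 libraries was most like that of each member, by Pearson correlation on log2(FPKM + 1) among 13693 genes that vary, were the following. Those for Uhrf1 were Mcm3 (0.98), Mcm2 (0.97) and Umps (0.97), and those for Dnmt1 were Prc1 (0.97), Rrm1 (0.97) and Kif4 (0.97). Those for Tet1 were Thtpa (0.96), Ralgps1 (0.96) and E130308A19Rik (0.95), and those for Tet2 were Zyg11b (0.94), Fam210b (0.94) and Csmd1 (0.92). For Dnmt3a they were Epb4.1l5 (0.92), Nipsnap1 (0.92) and Gm7694 (0.91), and for Tet3 Usp22, Zc3hc1 and Bach2 (0.88, 0.88 and 0.87). Within the family, Dnmt3a and Tet1 correlated at 0.792, Dnmt3a and Tet3 at 0.766, Tet1 and Tet3 at 0.767 and Tet2 and Uhrf1 at -0.638.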

How the data were processed

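Poly(A) RNA of 22 mouse libraries was sequenced in paired ends on an Illumina HiSeq, per the labels. The authors deposited 2 tables per library. One holds deposited counts of reads in each RefSeq transcript, as whole numbers, for which the submitters' processing notes name HTSeq 0.6.0. The other holds the deposited FPKM of each transcript in Cufflinks format (per the file headers), with Cufflinks 2.2.1, TopHat2 2.0.12 and the genome mm9 named in those notes. They also list edgeR, but how it was used, and whether reads were counted by strand, is not stated in the labels or file headers.

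The counts drop reads shared by transcripts of a gene: Dnmt1, Uhrf1, Dnmt3b, Dnmt3l and Tdg had 0 to 4 counts per library, and Dnmt3a, Tet1, Tet2 and Tet3 had 11 to 794. FPKM summed over transcripts were therefore the main values. They were tested with limma 3.58.1 (R 4.3.3, eBayes with trend) on log2(FPKM + 1), with 11 group means over 22 libraries (11 residual degrees of freedom), after keeping genes of at least 1 FPKM in at least 2 libraries. P-values of 13 comparisons were adjusted by Benjamini-Hochberg over all 15659 genes, and a standard error follows each ±. Counts summed by gene were tested with edgeR 4.0.16 (TMM, filterByExpr, quasi-likelihood) and DESeq2 1.42.0 as alternatives. Other alternatives were a pseudocount of 0.1, no filter, TMM rescaling, only the 4 libraries compared, no trend, a replicate block, each library left out in turn, and, chosen after seeing the data, Tdg summed with Gm9855. In data simulated for day 21 against day 1 over 15659 genes, limma recovered 39% of genes changed by 0.585 and 78% of those changed by 1 on the log2 scale, with 11 false calls. Far fewer genes were changed in that simulation than the 62.4% called in the real comparison. The adjustment was therefore stricter there, and the recovery need not hold for the real tests.

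Named genes are all 9 members and, from 15 other gene lists, the called genes with the highest and lowest change in day 14 and day 21 against day 1, giNPC P6 against Brain-NPC and teratoma against giNPC P6. Genes most like a member had to span at least 1 on the log2 scale. The members and lists were chosen with earlier results of these data known. Groups were read from the labels, which name no batch, and no sample was left out. Coordinates of genes are mm9 as deposited, and promoter sequences are from RefSeq (GRCm38.p6), matched by symbol for all 9 members. FPKM tables carry no read depth for single genes, so the precision of low values rests on the spread of 2 libraries and the deposited FPKM intervals.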

Additional observations from a re-analysis of the deposited data

How the results depend on the processing

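The count tests cover only 4 of the 8 tested members, so their numbers of called members are smaller by construction. With edgeR, edgeR without a filter and DESeq2 in turn, the members called were 2, 2 and 2 on day 10, 3, 2 and 3 on day 14, and 2, 2 and 2 on day 17 against day 1. They were 2, 1 and 2 on day 17 against day 14, 3, 3 and 3 in pre-NPC against day 21, 2, 2 and 2 in giNPC P6 against pre-NPC, and 3, 3 and 3 in giNPC P6 against day 1. They were 4, 2 and 4 in giNPC P6 against Brain-NPC and 3, 3 and 2 in teratoma against giNPC P6. In Brain-NPC against day 1, edgeR called 3 with the filter and 3 without it, and edgeR without a filter called 0 on day 4, 1 on day 7 and 2 on day 21. TMM rescaling gave 1 member on day 7, and a fit of only the 4 libraries compared gave 0 on day 4 and 2 in giNPC P6 against pre-NPC.

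Among values called in either test, signs turned for Tet2 on day 17 against day 1 (-0.0151 in edgeR, -0.0086 without a filter, -0.0456 in DESeq2). They also turned for Dnmt3a in teratoma against giNPC P6 (-0.4833 in edgeR, -0.4723 without a filter), on counts that leave out reads shared by its 2 transcripts. The cause was not tested for either gene. Summing Tdg with Gm9855 turned giNPC P6 against pre-NPC (0.7593), against Brain-NPC (0.642) and teratoma against giNPC P6 (-1.1325). Values called in neither test also turned: in edgeR, Tet3 on day 4 (-0.06), Tet2 on day 10 (-0.41) and Tet3 on day 21 (-0.21) against day 1, and the Tdg sum on day 4 (-0.13). With a library left out, the number called moved past 1.5 times only on day 7 (0 to 1, from 2), and 389 of 416 values of single members kept their direction and call.

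Replicate numbers only name the libraries: the deviations of same-numbered libraries correlated over 0.1 in 9 of 55 pairs of groups (-0.261 to 0.281), and the replicate block changed none of 104 member calls. Over all genes, the number called was 0.611 to 0.842 times the main one with edgeR, beyond 1.5 times in 7 of 13 comparisons, and 0.296 to 1.08 times with only the 4 libraries compared. Low values limit Tet1 on days 1 to 7, Dnmt3b and Dnmt3l, and fragments shared with Gm9855 limit Tdg.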

Other observations

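Ddx4 and Sycp3, germline genes described with the gene lists, were singled out here after their values were seen. Ddx4 had 3.40 and 3.66 FPKM in pre-NPC, and the other 20 libraries ranged from 0 to 0.670 FPKM. Sycp3 had 2.86 and 4.36 FPKM on day 17, 2.33 and 1.88 in pre-NPC and 1.09 and 1.53 on day 21, and the other 16 libraries ranged from 0.150 to 0.767 FPKM. Against day 21, Ddx4 was 1.61 ± 0.11 higher in pre-NPC on the log2(FPKM + 1) scale (limma with Benjamini-Hochberg adjustment, adjusted p = 6.91e-08), and it was lower in giNPC P6 than in pre-NPC (-1.83 ± 0.11, adjusted p = 1.37e-08). Ddx4 passed the filter on low values only through pre-NPC and was picked for its values there, so these p-values are no independent support. Pre-NPC and day 17 were also the groups with the lowest mean Uhrf1, at 1.40 and 3.41 FPKM, and a relation between these values was not tested.

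The Cufflinks estimates for the 4 annotated Dnmt1 transcripts also differed between groups, a difference that was not tested. The longest in span, NM_001199432 (chromosome 9, 20711650 to 20764332, mm9), had 14.8 and 15.1 FPKM on day 1 and 33.7 and 36.7 on day 14, but 10.2 and 0.0001 in giNPC P6 and 1.09 and 2.58 in Brain-NPC. The transcript NM_010066 had at most 0.147 FPKM in the 16 libraries of days 1 to 21 and pre-NPC, 7.97 and 14.8 in giNPC P6 and 25.9 and 27.5 in Brain-NPC. The paired libraries of day 17 also lay far apart for NM_001199432 (6.53 and 14.5 FPKM), although Dnmt1 summed over its transcripts was 18.9 and 18.1 FPKM in them.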
